A study of Mus musculus with 9 samples.

Results

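The genes described here are Thy1, Entpd2, Cd34, Dpt, Clec3b, Inmt and Pi16, 7 genes used as markers of the fibroblasts that lie around portal tracts and in the adventitia of vessels, among 30869 gene symbols on the array. They were chosen by name, with results of these arrays already known, so their own levels and differences are given as a description, and nothing is read from the counts of calls given for them. The array held 9 probes for them, 1 for each gene except Thy1 and Inmt, which had 2 each. A probe was kept where at least 3 of the 9 arrays detected it, which means a signal above the negative control probes at a detection p below 0.05. This left 8 of the 9 probes and all 7 genes. Dpt and Inmt passed through the WT1-high and WT1-intermediate arrays alone.

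Activated hepatic stellate cells (aHSCs), the scar-forming cells of injured liver, were obtained by density centrifugation and flow sorting from mice labelled male, C57/Bl6 and WT1GFP/+, in which green fluorescent protein (GFP) reports from 1 WT1 locus. All groups therefore carried the reporter allele. In adults given repeated carbon tetrachloride injections to scar the liver, cells were sorted directly into WT1-high (GFP high) and WT1-intermediate (labelled GFP low) populations, 3 arrays each, numbered 1, 8 and 29 and 1, 8 and 30. WT1-negative cells (numbered 3, 11 and 14) were GFP-negative cells sorted after quiescent stellate cells had been left to activate for 7 days of culture on plastic. WT1 status and the place of activation, in a scarred liver or in culture, cannot be told apart in any comparison with WT1-negative cells. In a bulk population, fewer cells of a type and less RNA per cell cannot be told apart either.

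Portal fibroblasts surround the bile ducts and hold the elastin-rich matrix of the portal tract, and they are a source of scar-forming myofibroblasts distinct from stellate cells. Adventitial fibroblasts form the outer sleeve of vessels in many organs, and a subset marked by Pi16 and Dpt is regarded as a common reserve state of fibroblasts. Thy1 (CD90) is an anchored surface glycoprotein that fibroblasts share with T cells. Entpd2 is a surface enzyme that breaks down extracellular ATP and has been used to tell portal fibroblasts from stellate cells. Cd34 is a surface sialomucin of fibroblasts, endothelium and blood progenitors. Dpt (dermatopontin) is a small matrix protein that binds collagen-associated proteoglycans, Clec3b (tetranectin) is a secreted plasminogen-binding lectin, Pi16 is peptidase inhibitor 16, a cysteine-rich secretory family protein, and Inmt is an enzyme that adds methyl groups to tryptamine and other amines.

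Upstream sequence from RefSeq (build GRCm38.p6) was matched for 5 of the 7 genes by symbol. Those of Inmt, Dpt and Pi16 are shown because these genes differed most between the WT1-high and WT1-intermediate cells. That of Entpd2 is shown as an example of a gene whose arrays overlapped there. Cd34 overlapped there as well, and its window, with no match of those searched below, is not shown. Each run is 5′ to 3′ on the strand of the gene and ends at the base before the annotated start, except for Pi16, which ends earlier, where the RefSeq gene begins. Capitals mark matches on either strand. The letters searched were TATAAA for the TATA box, CANNTG for the E-box, GGGCGG for the GC box, GCGTGGG for a core bound by EGR factors and WT1, and TGANTCA for the site of AP-1. No matches overlapped in these windows.
Inmt, chr6:55174991-55175240, minus strand: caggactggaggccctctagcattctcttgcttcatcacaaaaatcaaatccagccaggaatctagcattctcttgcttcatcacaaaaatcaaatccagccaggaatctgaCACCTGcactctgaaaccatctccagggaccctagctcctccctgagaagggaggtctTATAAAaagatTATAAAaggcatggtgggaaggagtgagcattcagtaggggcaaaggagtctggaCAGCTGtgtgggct
Dpt, chr1:164796413-164796662, plus strand: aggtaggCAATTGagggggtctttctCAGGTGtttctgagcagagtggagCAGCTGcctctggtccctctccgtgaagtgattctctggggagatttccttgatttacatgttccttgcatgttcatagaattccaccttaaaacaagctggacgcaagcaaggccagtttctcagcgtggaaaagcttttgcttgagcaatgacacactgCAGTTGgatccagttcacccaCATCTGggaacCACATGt
Pi16, chr17:29318632-29318795, plus strand: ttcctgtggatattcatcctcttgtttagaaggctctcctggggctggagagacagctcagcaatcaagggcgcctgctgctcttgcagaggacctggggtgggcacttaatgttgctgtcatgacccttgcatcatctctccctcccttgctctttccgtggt
Entpd2, chr2:25395624-25395873, plus strand: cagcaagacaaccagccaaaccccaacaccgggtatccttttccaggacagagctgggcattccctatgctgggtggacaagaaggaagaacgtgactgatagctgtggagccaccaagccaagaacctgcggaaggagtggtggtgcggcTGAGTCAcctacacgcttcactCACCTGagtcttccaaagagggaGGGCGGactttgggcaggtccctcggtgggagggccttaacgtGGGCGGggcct

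No motif was in all 5 windows, and Cd34 and Pi16 had none. For Pi16 the full 250 bases were searched, of which the run above shows only those before the RefSeq gene. Inmt was the 1 of the 5 with TATAAA, in 2 copies, a hexamer found in 12.4% of 32851 windows of the same 250 bases. Dpt held 6 E-boxes, Inmt 2 and Entpd2 1, and 66.2% of all windows held at least 1. Entpd2 alone had the GC box (2 copies, 32.7% of windows) and TGANTCA (1 copy, 6.75% of windows). GCGTGGG was in none of the 5, and in 4.3% of all windows. The Inmt window also held 2 copies of a stretch of 46 bases, directly adjoining, and 0.198% of all windows held an exact repeat of that length. A match is a description of the letters and not evidence of binding.

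Thy1 and Inmt were each measured by 2 probes that shared no more than 5 bases in a row, so their probes are shown by their first 30 of 50 bases. Beside them stand the probe of Clec3b and a probe that the array annotates with the symbol Tna and no gene identifier. RefSeq lists Tna as an older name of Clec3b.
Inmt, probe ILMN_1231445: cagcaccaacatccatcccctttgctctta
Inmt, probe ILMN_2803249: ctgaagtgcaactgcgtctccctcagctac
Thy1, probe ILMN_2644350: gggcaggcggtggagtgagatccggcgtgc
Thy1, probe ILMN_2474578: caggtacaggcacagtccaacttccctcat
Clec3b, probe ILMN_2845778: tgaacattggtgagtggggcgggcctggtg
Tna, probe ILMN_2434661: gctcaaagatgttcgaggaactcaagaaca

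Levels below are log2 intensities after background correction and quantile normalization, on which 1 unit is a doubling, given in the order of the array numbers above. They compare groups for 1 probe and never probes with one another. For the kept probes of the 7 genes, each detected intensity was a mean over 22 to 59 beads with a standard error of 2.13 to 7.13% of its value. The arrays detected 38.1 to 43.7% of 45281 gene probes.

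Inmt, the amine methyltransferase, had the largest WT1-high against WT1-intermediate difference of the 7 genes. Its brighter probe read 7.38, 7.41 and 8.07 in WT1-high cells, 11.26, 11.06 and 11.42 in WT1-intermediate cells, and 4.35, 4.30 and 4.34 in WT1-negative cells. The 3 groups were separate, and no WT1-negative array detected the gene. Group means were 7.62 ± 0.39, 11.25 ± 0.18 and 4.33 ± 0.02 (SD, n = 3 each), and the difference of WT1-high from WT1-intermediate cells was -3.63 ± 0.19 (SE), 12.4-fold lower on the linear scale. The second probe read 5.59, 5.60 and 5.67 in WT1-high and 8.99, 9.03 and 9.51 in WT1-intermediate cells. Its difference of -3.56 ± 0.16 was close to that of the first probe, although the probes shown above share little sequence.

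Pi16, the marker of the adventitial reserve state, had the same order of groups. It read 6.46, 6.93 and 7.97 in WT1-high cells, 10.08, 9.94 and 11.16 in WT1-intermediate cells, and 5.23, 5.45 and 5.27 in WT1-negative cells. Every array detected it, and the groups did not overlap. The difference of WT1-high from WT1-intermediate cells was -3.27 ± 0.38 (SE), 9.67-fold lower, and that from WT1-negative cells was 1.80 ± 0.38. Its spread within WT1-high cells was the widest of the 7 genes there (SD 0.77).

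Dpt, a matrix protein, read 8.90, 9.12 and 9.96 in WT1-high cells, 11.03, 11.17 and 11.65 in WT1-intermediate cells, and 4.43, 4.33 and 4.32 in WT1-negative cells. No WT1-negative array detected it, and the 3 groups were again separate. The difference of WT1-high from WT1-intermediate cells was -1.96 ± 0.26 (SE), 3.89-fold lower. Where a whole group was undetected, its level was set to the higher of the lowest detected signal and the probe's own on each array, which gives a lower bound on the fold. Against WT1-negative cells, Dpt in WT1-high cells was at least 26.4-fold higher, and in the WT1-intermediate group at least 103-fold higher. By the same bound Inmt was at least 8.08-fold and at least 99.8-fold higher by its brighter probe, and at least 2.02-fold and at least 23.8-fold higher by the other.

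Clec3b, the secreted lectin, read 7.09, 6.75 and 7.58 in WT1-high cells, 8.21, 7.82 and 9.41 in WT1-intermediate cells, and 4.38, 4.60 and 4.83 in WT1-negative cells, of which number 3 did not detect it. The groups were separate, but by a gap of only 0.24 between WT1-high and WT1-intermediate arrays. The difference between those groups was -1.34 ± 0.35 (SE). The probe annotated Tna read 7.57, 7.90 and 7.82, then 7.83, 8.52 and 9.02, and was detected on no WT1-negative array. Its WT1-high and WT1-intermediate arrays overlapped, with a difference of -0.69 ± 0.25. Both readings put WT1-high cells lower and WT1-negative cells lowest, and they differed in whether the first pair of groups separated.

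Entpd2, the ecto-ATPase, read 8.68, 9.36 and 8.64 in WT1-high cells, 9.09, 9.88 and 9.71 in WT1-intermediate cells, and 5.41, 5.80 and 5.55 in WT1-negative cells. The first pair of groups overlapped and both lay above WT1-negative cells. Their difference was -0.66 ± 0.24 (SE), and it turned to 0.04 when arrays were scaled by their medians.

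Cd34, the sialomucin, read 8.84, 9.32 and 9.28 in WT1-high cells, 8.52, 8.81 and 9.02 in WT1-intermediate cells, and 4.67, 4.82 and 4.41 in WT1-negative cells, 2 of which detected it. Its WT1-high and WT1-intermediate arrays overlapped, with a difference of 0.36 ± 0.19 (SE). WT1-high cells exceeded WT1-negative cells by 4.51 ± 0.19 and WT1-intermediate cells exceeded them by 4.15 ± 0.19.

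Thy1 stood apart from the other 6 genes in being highest in the cultured cells. It read 8.22, 8.17 and 8.59 in WT1-high cells, 7.78, 8.31 and 8.54 in WT1-intermediate cells, and 9.08, 9.11 and 9.47 in WT1-negative cells. Every array detected it, and each WT1-negative array lay above all 6 others. The difference of WT1-high from WT1-negative cells was -0.89 ± 0.21 (SE), and that of WT1-intermediate cells was -1.01 ± 0.21. The WT1-high minus WT1-intermediate difference was 0.12 ± 0.21, and its sign turned when WT1-high array 29 (-0.01) or WT1-intermediate array 1 (-0.09) was left out. The second Thy1 probe was detected on none of the 9 arrays and was not used.

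**Figure D1:**
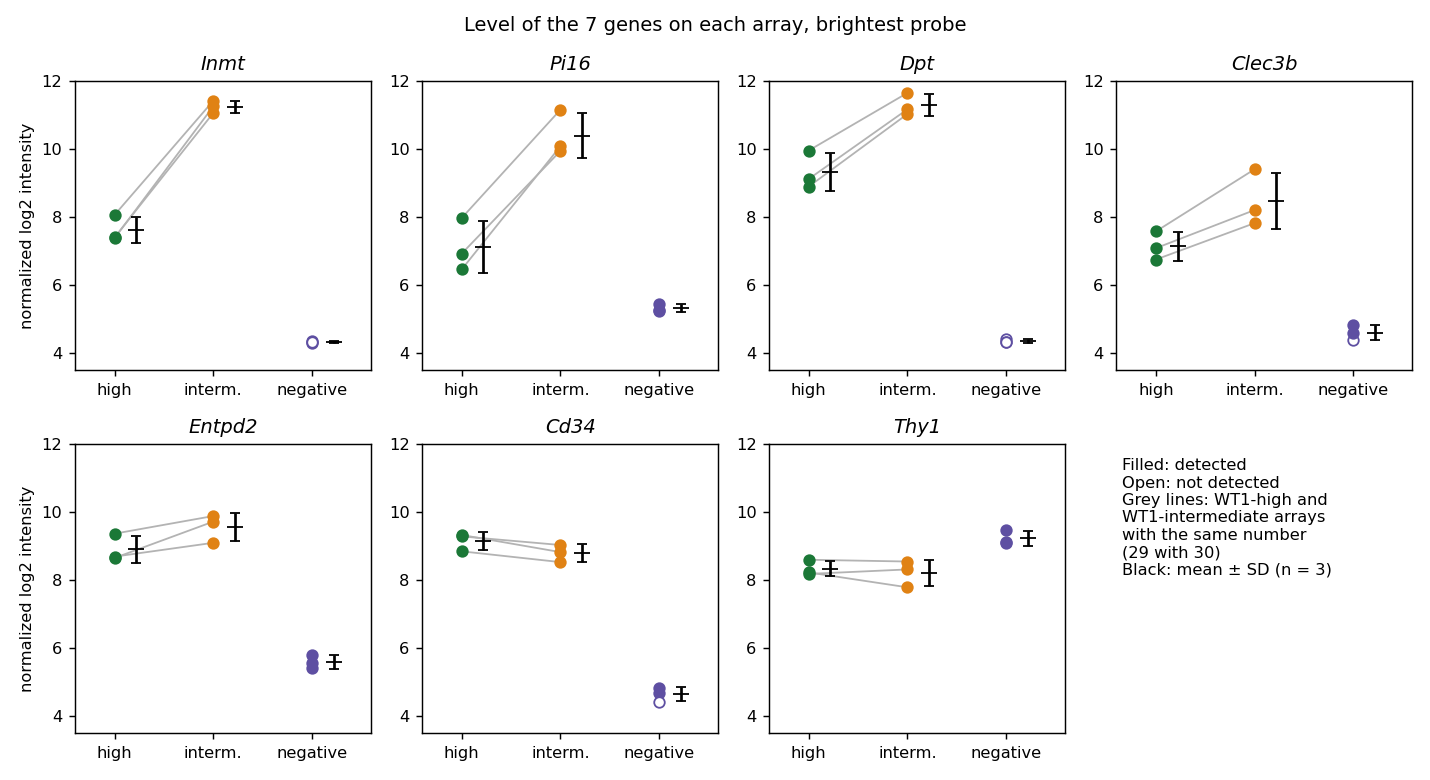
Normalized log2 intensity of the brightest probe of each gene (vertical axis) on every array of the 3 groups (horizontal axis), with open points for arrays that did not detect the gene, black bars for the mean ± SD of 3 arrays and grey lines joining WT1-high and WT1-intermediate arrays of the same number. Inmt, Pi16, Dpt and Clec3b form 3 separate levels with WT1-intermediate highest, Entpd2 and Cd34 form a pair of overlapping levels above WT1-negative, and Thy1 is highest in WT1-negative cells.

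Of the whole set, 4 of the 7 genes were lower in every WT1-high than in every WT1-intermediate array (Inmt, Pi16, Dpt and Clec3b) and none was higher. Over all 20573 kept probes, 8.6% were separated in that direction and 11.5% in the other. By limma's moderated test with Benjamini-Hochberg adjustment over all kept probes, Inmt, Pi16 and Dpt were called lower and, under this scaling, none higher, beside 2.64% of all probes called lower and 0.904% called higher. The median difference of the 7 genes was -1.34, beside 0.05 over all kept probes. Since the genes were chosen with this contrast known, nothing is read from these counts. With arrays aligned on their medians the same 3 were called lower and Cd34 higher, at a difference of 1.07, beside 0.588% of all probes called lower and 12.5% higher. With array number as a block, 5 of the 7 were called lower, Clec3b and Entpd2 being added, beside 5.12% of all probes called lower and 2.93% higher.

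The WT1-high minus WT1-intermediate differences were also taken within array numbers. For numbers 1, 8 and 29 with 30 they were -3.87, -3.66 and -3.35 for Inmt, -3.62, -3.02 and -3.18 for Pi16, and -2.13, -2.05 and -1.69 for Dpt. These 3 genes varied least between pairs in relation to the size of their differences. Those of Clec3b were -1.12, -1.07 and -1.83, and those of Entpd2 were -0.41, -0.52 and -1.07. Cd34 had positive differences of 0.32, 0.50 and 0.25. Only Thy1 of the 7 genes lacked a common sign. By normalized level, array 29 was the highest of the WT1-high arrays for 5 of the 7 genes. Array 30 was the highest of the WT1-intermediate arrays for 6. Arrays 29 and 30 detected the fewest probes of their groups, 17253 and 17581. Mean deposited intensity was 147 on array 30, beside 184 and 221 on WT1-intermediate arrays 1 and 8. By deposited intensity, array 30 was highest of its group for Clec3b and Pi16, and not for Thy1, Cd34, Dpt or Inmt. Array 29 was highest by that measure for Dpt, Clec3b and Pi16, and not for Thy1 or Inmt.

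Against WT1-negative cells all 7 genes were separate from both other groups, 6 higher and Thy1 lower. Since the genes were chosen with these contrasts known, and Dpt and Inmt passed the detection filter without the WT1-negative arrays, nothing is read from this. For WT1-high cells the shares over all kept probes were 26.5% called higher, 33.1% called lower, 30.7% separate and higher and 37.7% separate and lower. For WT1-intermediate cells these were 24.4%, 33.6%, 28% and 37.5%. Both comparisons share the WT1-negative arrays. Dpt and Inmt, undetected in WT1-negative cells, are given there only by the bounds above. Entpd2 had differences of 3.31 ± 0.24 and 3.97 ± 0.24 in the WT1-high and WT1-intermediate comparisons, and Clec3b of 2.54 ± 0.35 and 3.87 ± 0.35. Pi16 had the smallest difference of the 6 higher genes in WT1-high cells and a difference of 5.08 ± 0.38 in WT1-intermediate cells.

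**Figure D2:**
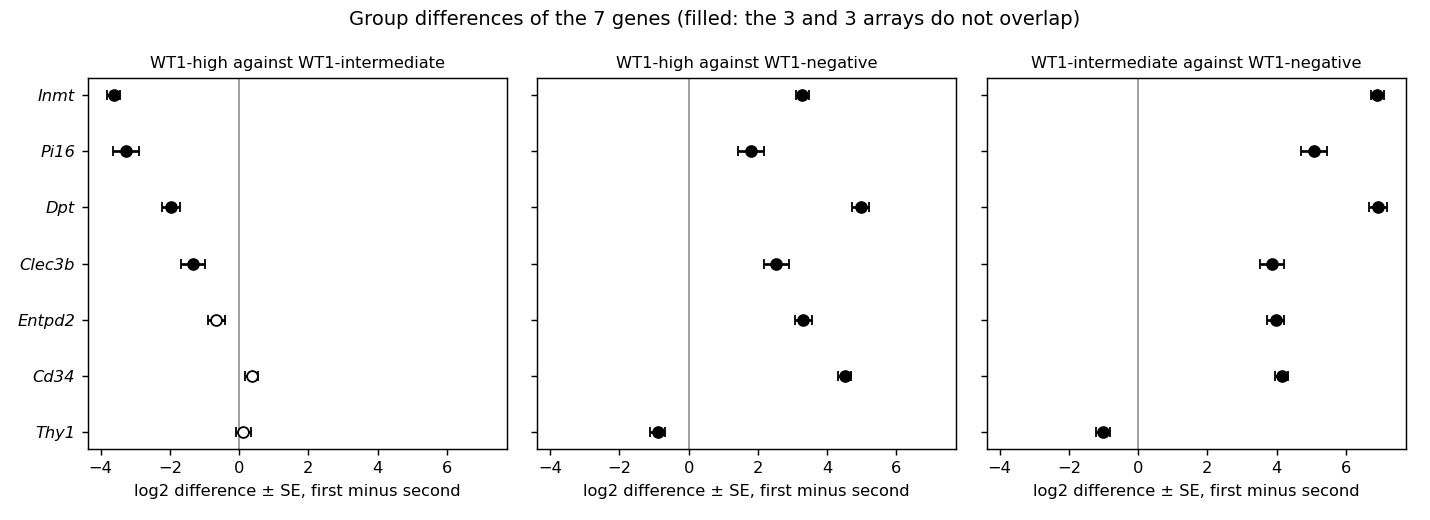
Difference between groups for each of the 7 genes (horizontal axis, log2, first group minus second, with the standard error of the linear model as bars) in the 3 comparisons, filled where the 3 arrays of one group do not overlap the 3 of the other. In the first panel 4 genes lie to the left without overlap, and in the other panels 6 genes lie to the right and Thy1 to the left.

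Scaling set part of the first contrast. When arrays were aligned on their medians in place of their whole distributions, the median of all kept probes moved from 0.05 to 0.45 between WT1-high and WT1-intermediate cells, and the split of called probes moved from 186 higher and 544 lower to 2563 higher and 121 lower. Without background correction it was 186 higher and 287 lower. Relative to that shift, the 7 genes kept their directions, at -3.51 for Inmt, -3.09 for Pi16, -1.79 for Dpt, -1.10 for Clec3b, -0.41 for Entpd2, 0.62 for Cd34 and 0.37 for Thy1. In WT1-intermediate against WT1-negative cells the median of all probes moved from -0.13 to -0.44 under median scaling and the split from 5029 higher and 6906 lower to 2545 and 8456, while the 7 genes kept their directions.

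Other genes of the same cell types were listed from general knowledge, 11 for portal and 15 for adventitial fibroblasts. The lists were written with earlier results of these data known. Their counts and p-values are therefore a description and not an independent test. Between WT1-high and WT1-intermediate cells none of the 9 kept portal fibroblast genes was called at an adjusted p under 0.05, and their median difference was 0.01. Eln (elastin) read 10.49 and 10.15 on average, Cd248 (endosialin) 10.88 and 10.69, and Pdgfra, a growth factor receptor of fibroblasts, 9.33 and 9.31. Mfap4, an elastic fibre protein, had group means of 7.38 and 8.48 that were separate, without passing the test (limma, adjusted p = 0.062). Grem1 was detected on no array of these groups, and Gli1 and Aspn were not kept.

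Of the 15 adventitial genes 4 fell in WT1-high relative to WT1-intermediate cells and none rose, with a median of -0.30, beside the 2.64% and 0.904% of all probes given above. Scara5, a ferritin receptor of adventitial fibroblasts, fell by 1.83 ± 0.25 (SE, limma, adjusted p = 0.0031), and Ly6c1, a surface antigen, fell by 1.17 ± 0.26 (adjusted p = 0.032). Tnxb (tenascin XB) fell by 1.02 ± 0.23 (limma, adjusted p = 0.034) and Mfap5, a microfibril protein, by 1.08 ± 0.27 (limma, adjusted p = 0.04999). Under median scaling 1 of the 15 fell (Scara5, -1.16, limma, adjusted p = 0.043) and 2 rose (Cd55 and Igfbp6, at 1.55 and 1.18). Over all kept probes 0.588% were called lower and 12.5% higher under that scaling. In the same fit Vit of the portal genes rose by 1.01. Ly6c1, Tnxb and Mfap5 were there at -0.50, -0.32 and -0.39 without passing the test. A second Gsn (gelsolin) probe, not the brightest and so not counted, fell by 3.23 ± 0.31 (limma, adjusted p = 0.00041), with group means of 5.32 and 8.56, where the brightest probe differed by 0.06. Of the other probes not counted, 1 of Col14a1 and 2 of Tnxb fell as well. Tnxb, Mfap5, Igfbp6, Gsn and Col14a1 were named here after their values were seen. Scara5 was called under each alternative that kept its probe, while leaving out WT1-high array 8 or 29, WT1-intermediate array 8 or WT1-negative array 14 left 1 call of the 24 portal and adventitial genes, and leaving out WT1-intermediate array 30 left 2. Dpp4, the surface peptidase that marks the same reserve state as Pi16, had group means of 9.96 and 9.88 and was not called.

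Against WT1-negative cells the counts for the other genes are likewise given as a description. In WT1-high cells 5 of 9 portal genes rose and 1 fell, with a median of 1.35, and 10 of 15 adventitial genes rose and 2 fell, with a median of 3.40. In WT1-intermediate cells 5 portal genes rose and 1 fell, and 12 adventitial genes rose and 2 fell, with medians of 1.16 and 3.26. Medians over all kept probes were -0.10 and -0.13. Of all kept probes 26.5% were called higher and 33.1% lower in WT1-high cells, and 24.4% and 33.6% in WT1-intermediate cells. Vit, Sema3c, Scara5, Ackr3 and Procr passed the detection filter without the WT1-negative arrays, and Grem1 through those arrays alone. Nothing is read from these counts. Among portal genes Eln rose by 4.90 and 4.56. Vit (vitrin, a matrix protein), detected on no WT1-negative array, was at least 10.3-fold and at least 8.11-fold higher (limma, adjusted p of 5.5e-07 or below for each). Grem1, a BMP antagonist detected on no array of the liver groups, was at least 4.07-fold and at least 4.04-fold lower (limma, adjusted p = 1.4e-07 and 2.2e-07).

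Cd55, a complement regulator detected on 1 WT1-negative array, and Dpp4 had the largest fitted rises among adventitial genes in WT1-high cells, 5.75 ± 0.23 and 4.63 ± 0.20 (SE, limma, adjusted p = 7e-09 and 1.5e-08). In WT1-intermediate cells Scara5, undetected on all WT1-negative arrays, was at least 43.1-fold higher (limma, adjusted p = 2.3e-08), and Ly6c1 rose by 5.21 ± 0.26 (limma, adjusted p = 4.8e-08). Anxa3 (annexin A3) fell in both, by 0.77 and 0.87 (limma, adjusted p = 0.00085 and 0.00039). Gsn had differences of -2.83 and -2.89 by its brightest probe, but its second probe rose by 1.02 and 4.26 (limma, adjusted p = 0.015 and 9.9e-07), so no direction can be given for it.

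Entpd2 was set beside other enzymes of nucleotide breakdown, of which 5 of the 8 on the array were kept. Between WT1-high and WT1-intermediate cells Enpp2 (autotaxin, which makes lysophosphatidic acid) rose by 1.96 ± 0.44 and Enpp1, which makes pyrophosphate, fell by 0.95 ± 0.20 (SE, limma, adjusted p = 0.033 and 0.029). Enpp1 was at -0.42 under median scaling and at -0.41 without background correction, and neither passed the test (limma, adjusted p = 0.25 and 0.096), and Enpp2 did not pass it without background correction (limma, adjusted p = 0.087). Against WT1-negative cells Enpp2, detected on no WT1-negative array, was at least 36.9-fold and at least 9.47-fold higher. Enpp1 fell there by 3.23 and 2.28, and Entpd6, a secreted relative, fell by 1.32 and 1.15 (limma, adjusted p of 5e-05 or below for each). Entpd5, an enzyme of the secretory pathway, rose in WT1-high cells by 0.49 (limma, adjusted p = 0.035) and differed by 0.00 in WT1-intermediate cells. Nt5e (CD73), which finishes the breakdown begun by Entpd2, passed no test, at 1.59 ± 0.77 and 1.22 ± 0.77. The median of the 5 was 0.37 between WT1-high and WT1-intermediate cells, with 1 called in each direction. Over all kept probes 0.904% were called higher and 2.64% lower.

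Markers of other cell types were given beside the 7 genes over whole lists. Between WT1-high and WT1-intermediate cells 8 of 14 macrophage genes fell and none rose, with a median of -1.70, beside 2.64% and 0.904% of all kept probes. The mean level of that list ran from 7.20 to 7.59 over the WT1-high arrays, from 8.78 to 9.22 over the WT1-intermediate arrays and from 9.72 to 9.90 over the WT1-negative arrays. C1qa and C1qc, of the complement C1q complex, had the largest falls, with differences of -2.83 ± 0.16 and -2.62 ± 0.18 (SE, limma, adjusted p = 7.3e-06 and 4.5e-05). Under median scaling 4 of the 14 fell (Adgre1, C1qa, C1qb and C1qc), beside 0.588% of all kept probes called lower and 12.5% higher. Itgam was detected on no WT1-high array, and Clec4f and Ptprc on no WT1-negative array. The part of these cells in the lower Inmt, Pi16, Dpt and Clec3b of WT1-high cells was not tested.

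Endothelial genes, relevant to Cd34, had mean levels of 5.93 to 6.18 over WT1-high, 6.56 to 6.68 over WT1-intermediate and 6.66 to 7.00 over WT1-negative arrays, with Kdr detected on none of the first 6. Of 14, 4 fell in WT1-high relative to WT1-intermediate cells and none rose (median -0.70), beside 2.64% and 0.904% of all kept probes. None was called under median scaling (median -0.09). The part of endothelial cells in the level of Cd34 was not tested. T and NK cell genes, relevant to Thy1, had mean levels of 6.54 to 6.99, 6.66 to 7.17 and 4.58 to 4.73. Of 9, 8 rose in WT1-high and 9 in WT1-intermediate relative to WT1-negative cells, beside 26.5% and 24.4% of all kept probes. Cd3e, Cd3d, Cd2, Nkg7, Klrd1 and Skap1 were detected on no WT1-negative array. They passed the detection filter through the arrays sorted from liver alone, so nothing is read from these counts. None of the 9 was called between the groups sorted from liver (limma, adjusted p over all kept probes). The part of T and NK cells in the level of Thy1 was not tested.

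The levels of 16 stellate markers were set beside the labelled cell type, which they do not test. Of these 11 were kept, and Lrat, Rgs5, Lhx2, Vipr1 and Gfap were not. Between WT1-high and WT1-intermediate cells Des (desmin) rose by 1.40 and Pdgfrb and Hgf fell by 1.28 and 1.16 (limma, adjusted p = 0.045, 0.0055 and 0.041). Under median scaling Des was called and Pdgfrb and Hgf were not (limma, adjusted p = 0.055 and 0.067). Mesothelial genes averaged 10.83 to 11.00 over WT1-high, 10.32 to 10.68 over WT1-intermediate and 4.81 to 5.04 over WT1-negative arrays. All 11 were called higher in both comparisons with WT1-negative cells, beside 26.5% and 24.4% of all kept probes. Gpm6a, Dmkn, Muc16, Lrrn4 and Rspo1 were detected on no WT1-negative array and passed the filter through the arrays sorted from liver alone. Between WT1-high and WT1-intermediate cells 1 (Dmkn) was called higher, beside 0.904% of all kept probes. Under median scaling 6 of the 11 were called higher there, beside 12.5% of all kept probes. Hepatocyte genes averaged 6.69 to 8.37, 6.50 to 7.68 and 5.64 to 5.96, and cholangiocyte genes 8.42 to 8.50, 7.67 to 8.16 and 5.16 to 5.54. Krt19 and Cftr, of the cholangiocyte list, were detected on no WT1-negative array. Contractile smooth muscle genes averaged 6.60 to 6.71, 6.39 to 7.00 and 7.98 to 8.15. The part of any of these in the levels of the 7 genes was not tested.

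**Figure D3:**
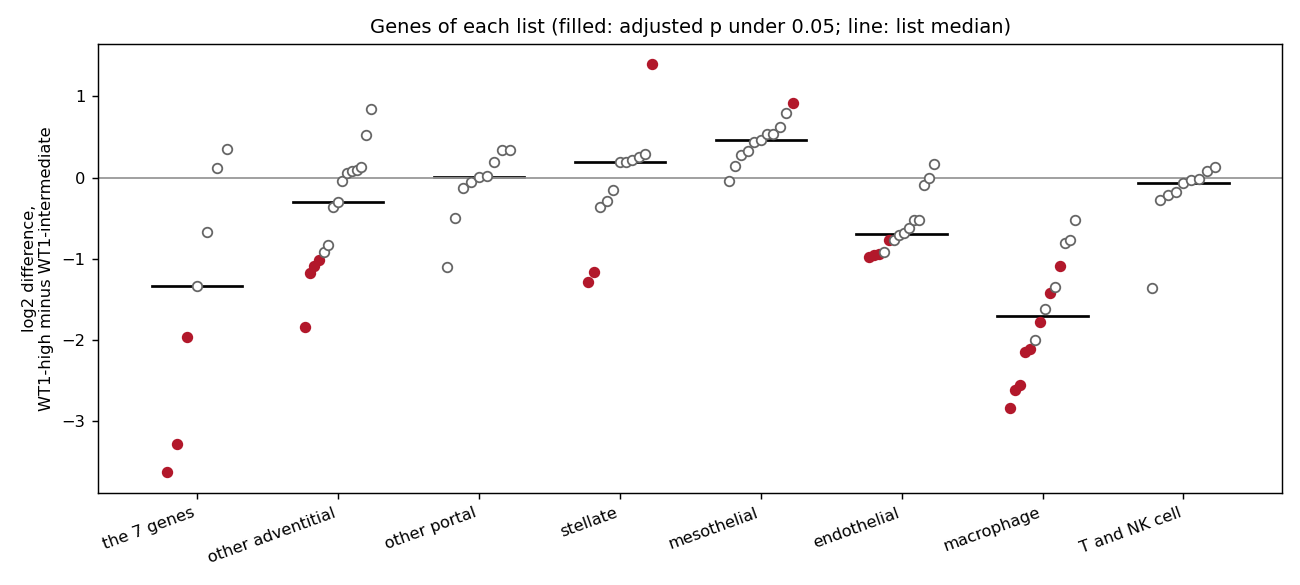
Difference between WT1-high and WT1-intermediate cells (vertical axis, log2, WT1-high minus WT1-intermediate) for every kept gene of 8 lists (horizontal axis), filled red where limma's adjusted p was under 0.05, with a line at each list's median. The 7 genes and the macrophage genes extend furthest down, with medians of -1.34 and -1.70, and the other portal fibroblast genes lie around 0.01.

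The nearest profile to each gene was sought among the brightest probes of 14652 other gene symbols. The nearest had the smallest root mean square difference over the 9 arrays after each profile was centred on its mean. Inmt and Dpt had the same first and second neighbours, Scara5 and Htra3 (a secreted protease), at 0.86 and 0.90 for Inmt and at 0.71 and 0.72 for Dpt. Next came Ear2 for Inmt and Ccl5 for Dpt. Pi16 had Pcolce2, an enhancer of procollagen processing, at 0.56, then Tmem100 and Lyz1 at 0.80 each. Pcolce2 had group means of 5.48, 8.93 and 4.82, so that it shared with Pi16 a WT1-high level nearer to WT1-negative than to WT1-intermediate cells.

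Clec3b lay nearest Hsd11b1, an enzyme that activates glucocorticoids, at 0.40, then Tmem100 at 0.41 and Itgbl1 at 0.47. Entpd2 lay nearest the probe annotated Tna at 0.28, then Efemp1, a fibulin, at 0.28 and Galntl2 at 0.32. The search counted the Tna probe as another gene, although Tna is an older name of Clec3b. Cd34 lay nearest Chst4, Hspa1b and Serpinb6b, at 0.18, 0.19 and 0.20. Thy1 lay nearest Sfrs17b, Ap2m1 and Mia3, all at 0.16. These are likenesses over 9 arrays in which 3 WT1-negative arrays carry much of the range. Among the 7 themselves the closest pair was Entpd2 and Cd34 (0.58), followed by Entpd2 and Clec3b (0.67) and Dpt and Inmt (0.80), while Thy1 lay at least 2.08 from each of the other 6.

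**Figure D4:**
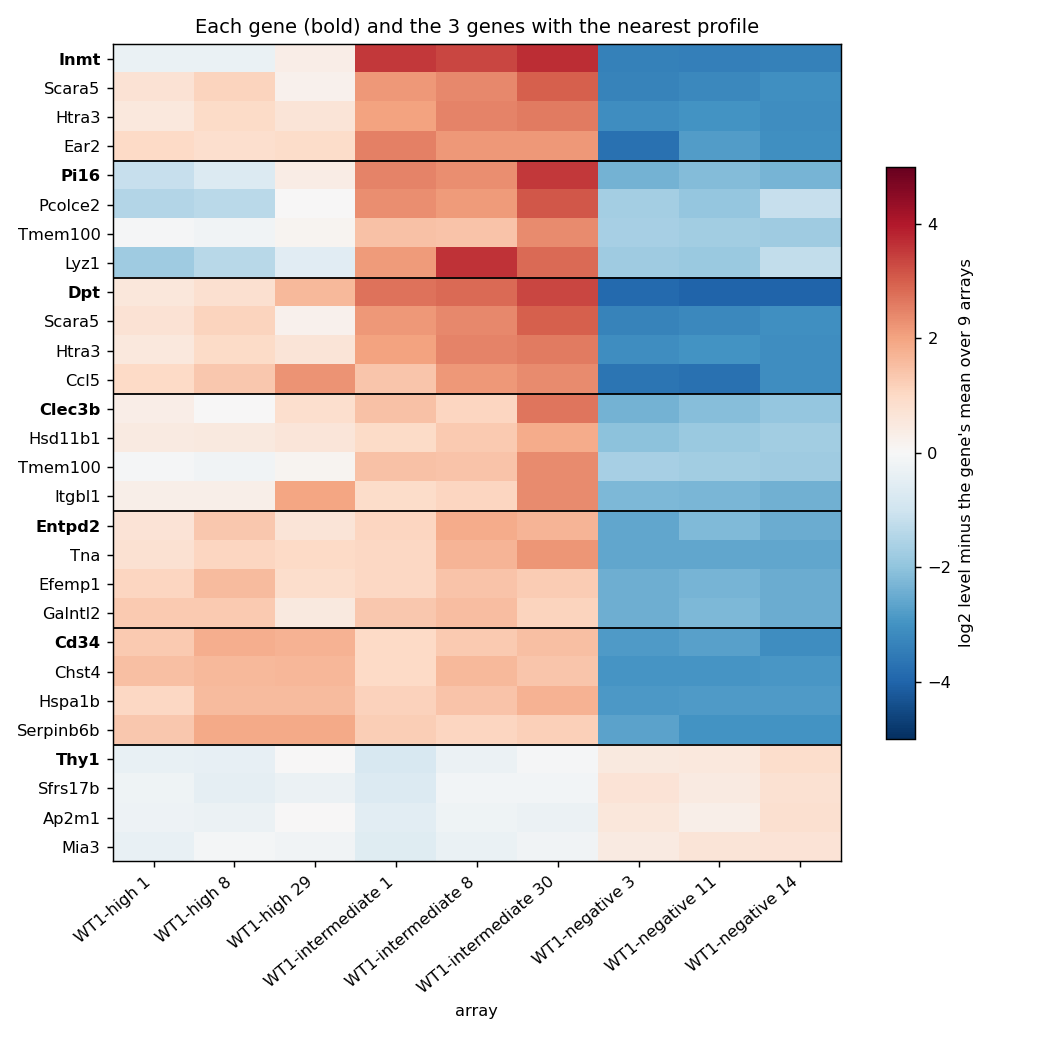
Level of each of the 7 genes (bold) and of its 3 nearest genes on the 9 arrays (horizontal axis), in colour as log2 level minus the gene's own mean over the arrays. Inmt, Pi16 and Dpt and their neighbours are reddest in WT1-intermediate cells, Entpd2 and Cd34 are of like colour in both groups sorted from liver, and Thy1 and its neighbours run the other way with a small range.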

How the data were processed

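RNA of 9 sorted samples was hybridised to 1 Illumina MouseWG-6 array each, version v2.0. The deposited tables held the authors' unnormalised BeadStudio probe profiles, with an intensity on the linear scale, a detection p-value, a bead standard error and a number of beads per probe, and a control probe table for the same arrays. A joined table of all 9 arrays repeated these intensities exactly (largest difference 0). The genome build was not given in the sources used here. No slide was named in the file headers. The deposited tables of the 6 in vivo and the 3 in vitro arrays were exported separately.

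Here the deposited intensities were background corrected with 936 negative controls, quantile normalized with an offset of 16 and log2 transformed (neqc, limma 3.58.1, R 4.3.3). Probes with a detection p-value under 0.05 on at least 3 of 9 arrays were kept (20573 of 45281). A linear model of group was fitted to all 9 arrays (6 residual degrees of freedom), with limma's moderated two-sided test and Benjamini-Hochberg adjustment over all kept probes, at a threshold of 0.05. The fit was tested on simulated data. The members and lists were chosen with earlier results of these data known. Genes were summed up by their brightest probe over the 9 arrays. The rule for naming took the 7 with all their probes and the 3 nearest profiles of each. It also took the 2 largest rises and 2 largest falls among the called genes of a list in a comparison. Not all of these are printed, Eng, Egfl7 and Acta2 being among those left out. Other genes are named outside the rule. Among them are Eln, Cd248, Pdgfra, Mfap4 and Dpp4 between WT1-high and WT1-intermediate cells, and Nt5e, none of which was called there. Of 126 list genes 121 matched the array's symbols, 2 an older symbol, and 3 were not matched. Samples were grouped by the GFP status in the labels.

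The study gives 3 animals for the in vivo arrays. Deviations from group means correlated by 0.35 (numbers 1), 0.34 (numbers 8) and 0.47 (29 with 30) and by -0.39 to 0.03 in the 6 other combinations, so numbers were taken to pair arrays. The reported fit has group alone and leaves this pairing out. Standard errors and adjusted p-values printed above are therefore unpaired, except where a block is named. The sample title numbers 1 WT1-intermediate array 30 where the deposited column is named 29, and it was joined with WT1-high 29. The p-values measure the spread over 3 samples a group, whose number limits the precision. Alternatives covered scaling, background, offset, detection filter, samples fitted, array weights, replicate blocks, probes counted and leaving out each array.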

Additional observations from a re-analysis of the deposited data

How the results depend on the processing

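In every alternative that kept their probes, the 7 genes kept their direction and their call against WT1-negative cells (129 values in each comparison). Between WT1-high and WT1-intermediate cells 127 of 136 values kept both, 6 gained a call and 3 reversed, namely Entpd2 under median scaling (0.036) and Thy1 without WT1-high array 29 (-0.01) or WT1-intermediate array 1 (-0.095), its range with 1 array left out being -0.095 to 0.284. Of the 7 genes, 3 were called there in the reported fit, 5 with a replicate block joining 29 and 30, 4 with the block by label number or as a random block, and 3 to 4 with 1 array left out. With only probes detected on all 9 arrays, 3 genes were left (Thy1, Entpd2 and Pi16), of which 1 was called in that comparison and 3 in each of the others, because fewer genes were tested. Of the 24 other portal and adventitial genes, 4 were called in the WT1-high against WT1-intermediate comparison. This was 6 with the joined replicate block, 4 by label number, 7 as a random block, 8 of 40 probes when every probe counted, 2 of 16 on probes detected throughout, and 1 without the filter or with only the compared groups fitted. With 1 array left out it was 1 to 3. Under median scaling it was also 4, but 3 higher and 1 lower in place of 4 lower. Against WT1-negative cells 18 (WT1-high) and 20 (WT1-intermediate) were called, 11 and 13 on probes detected throughout, 31 of 40 when every probe counted for WT1-intermediate, and 17 to 18 and 18 to 23 with 1 array left out. The cause of these changes was not tested where not given. Genes that the naming rule took from all lists were followed too, printed or not, with Mfap5 and Tnxb added in the first comparison. They lost a call in 98 of 295 values between WT1-high and WT1-intermediate cells. In the other comparisons they lost it in 21 of 642 and in 2 of 623 values. None reversed. Over all kept probes 730 were called between those groups, 2684 under median scaling, 473 without background correction, 335 without the filter, 339 with only those groups fitted, 1656 with the joined block, 1796 with the random block, and 333, 371 and 324 without WT1-high 8, WT1-high 29 and WT1-intermediate 1. Against WT1-negative cells 12258 and 11935 were called, and 7970 and 7716 on probes detected throughout. The block by slide was not run, since the headers name none. Signal over background limits Inmt, Dpt, Clec3b and Cd34 in WT1-negative cells.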
